A study of Mus musculus with 31 samples.

Results

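The genes described here are Myc and 45 factors that build ribosomes, measured by RNA sequencing in mouse regulatory T cells (Tregs) from 6 tissues. The 46 members were taken by name, and all 46 had 1 row among the 24594 genes of the count table. The list was drawn up with measured values of these libraries in view. Which values were used was not recorded, so each count of members called in the main fits is set beside the share of all genes called. For alternative fits that share is mostly not given, and their counts are not results about the members. No test is given for the list itself. The members comprise Myc, 4 genes of the RNA polymerase I machinery, 3 of the box C/D small nucleolar ribonucleoprotein (snoRNP), 5 of the box H/ACA snoRNP and its assembly, 5 multifunctional nucleolar proteins, 16 factors of small subunit assembly and 12 of large subunit assembly.

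All mice were FVB/N. KEP mice (K14cre;Cdh1F/F;Trp53F/F) lose E-cadherin and p53 in cells where the keratin 14 promoter drives Cre, and were taken with mammary tumors of 225 mm2. WT mice (wt;Cdh1F/F;Trp53F/F) carried the same floxed alleles without Cre. Tregs were sorted as live CD45+ CD3+ CD4+ CD8- CD25+ cells, a gate without FOXP3. WT groups were blood, spleen, lung and lymph node (3 libraries each) and mammary gland (4 libraries). KEP groups were blood, spleen, lung, tumor-draining lymph node and tumor (3 libraries each). The labels give 3 mice for each WT library and 1 mouse for each KEP library. Genotype and number of mice per library cannot be told apart, and p-values measure the spread between these libraries.

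A eukaryotic ribosome begins in the nucleolus, where RNA polymerase I transcribes the long precursor of the ribosomal RNAs. Box C/D snoRNPs methylate that RNA and box H/ACA snoRNPs convert uridines to pseudouridine, each led by a guide RNA. Large groups of assembly factors then fold, cut and export the small and large subunits. MYC is a transcription factor that binds, with its partner MAX, the E-box CACGTG, and many ribosome biogenesis genes are known MYC targets. T cells raise MYC and ribosome production when they are activated and lower both when they rest.

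The E-box was searched in the RefSeq promoters of the members (build GRCm38.p6, 250 bases before to 50 after each start), since the module joins MYC with its possible targets. CACGTG reads the same on both strands and was the only motif searched. Of the members, 40 had at least 1 promoter in the table, and Myc, Fbl, Npm1, Rrp12, Bop1 and Rrs1 had none there. At least 1 E-box was present in 10 of the 40 members (25.0%), namely Imp4, Ltv1, Mybbp1a, Nop2, Pes1, Rrn3, Tsr1, Utp18, Utp20 and Wdr43. Of the genes with a promoter in the table, 8.09% held it, and among the 9326 of them that were tested in blood, spleen, lung and lymph node 11.7% did. By promoter, 10 of 43 promoters of members (23.3%) and 2349 of 32851 promoters of the same length (7.15%) held it. Rrn3, the initiation factor of RNA polymerase I, was the member with 2 copies. By role, 6 of 15 small subunit factors held the motif, and none of the 5 box H/ACA genes or the 2 box C/D genes with a promoter did. A match describes these letters in this window and is not a measured binding site. The promoters of 5 members are printed 5′ to 3′ on the gene's strand, with the E-box in capitals. Utp20, Mybbp1a and Tsr1 are shown as members with an E-box that recur below among those with the smallest p-values. Rrn3 is shown for its 2 copies. Nop56 is shown because its levels are described at length below and its window has no E-box. Gnl3, Ppan and Noc2l also recur below, hold no E-box in their windows and are not printed. The printed set is thus weighted towards the motif. The windows are chr10:88826765-88827064 on the minus strand (Utp20), chr11:72441077-72441376 (Mybbp1a), chr11:74897830-74898129 (Tsr1), chr16:13780449-13780748 (Rrn3) and chr2:130274162-130274461 (Nop56), the last 4 on the plus strand.
Utp20: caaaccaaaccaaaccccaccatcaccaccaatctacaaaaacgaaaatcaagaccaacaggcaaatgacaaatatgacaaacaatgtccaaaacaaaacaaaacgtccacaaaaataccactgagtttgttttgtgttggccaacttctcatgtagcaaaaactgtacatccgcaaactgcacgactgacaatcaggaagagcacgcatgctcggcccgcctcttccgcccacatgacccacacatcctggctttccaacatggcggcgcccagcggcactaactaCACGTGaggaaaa
Mybbp1a: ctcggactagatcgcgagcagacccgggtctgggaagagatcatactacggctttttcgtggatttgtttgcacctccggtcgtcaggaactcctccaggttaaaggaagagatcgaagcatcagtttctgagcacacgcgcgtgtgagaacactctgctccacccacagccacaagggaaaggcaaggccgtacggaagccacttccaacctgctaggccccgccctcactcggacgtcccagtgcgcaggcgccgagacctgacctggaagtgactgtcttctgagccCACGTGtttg
Tsr1: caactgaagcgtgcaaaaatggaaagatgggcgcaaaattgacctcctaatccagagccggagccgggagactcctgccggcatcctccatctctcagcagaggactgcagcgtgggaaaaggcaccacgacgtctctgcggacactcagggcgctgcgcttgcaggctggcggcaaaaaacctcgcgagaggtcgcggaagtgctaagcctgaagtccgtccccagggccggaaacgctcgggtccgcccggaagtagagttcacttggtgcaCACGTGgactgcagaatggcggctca
Rrn3: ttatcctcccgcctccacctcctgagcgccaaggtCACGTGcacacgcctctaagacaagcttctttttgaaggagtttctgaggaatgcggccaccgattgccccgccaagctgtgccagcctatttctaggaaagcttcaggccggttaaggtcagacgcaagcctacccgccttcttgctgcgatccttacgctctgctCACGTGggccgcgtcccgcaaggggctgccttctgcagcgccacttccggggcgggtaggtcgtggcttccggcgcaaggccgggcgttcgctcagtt
Nop56: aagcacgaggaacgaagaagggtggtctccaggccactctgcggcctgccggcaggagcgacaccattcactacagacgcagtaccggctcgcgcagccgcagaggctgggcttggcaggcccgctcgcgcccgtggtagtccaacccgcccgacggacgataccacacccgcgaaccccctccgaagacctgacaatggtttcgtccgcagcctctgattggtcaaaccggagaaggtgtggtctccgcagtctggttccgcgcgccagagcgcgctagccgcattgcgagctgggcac

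Libraries held 8154765 to 15258958 counts in genes. A sum of 10 genes common to T cells (pan-T genes, Cd3e among them) was 84.5% to 106% of its WT spleen mean in the 24 libraries from blood, spleen, lymph node and lung. Tumor libraries had 33.4% to 110% and mammary gland libraries 2.87% to 33.7% by the same sum. In the gland, 8 epithelial markers summed to 4903 to 6580 CPM (reads counted for a gene, scaled to library size) and 7 milk and fat markers to 4215 to 25628 CPM. They reached at most 42.5 and 4.07 CPM in any library of those 24. Mammary gland values below are therefore levels in mixed libraries, in which fewer Tregs and less RNA per Treg cannot be told apart. That limit of bulk RNA applies to every group. Sorted cells per library ranged from 4500 in 1 mammary gland library to 70000, with 30000, 9000 and 20000 in WT blood against 70000, 17000 and 70000 in KEP blood.

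Levels are given as CPM after TMM scaling over the 31 libraries. Per kilobase of exon, in WT spleen, the members spanned from 1.81 CPM per kb for Wdr12, a large subunit factor, to 148 CPM per kb for Npm1, the nucleolar chaperone nucleophosmin. Nucleolin (Ncl) followed at 68.7, then Imp3 at 54.3 and the RNA helicase Ddx21 at 53.2 CPM per kb. These lengths join the exons of every annotated transcript of a gene, and the order depends on them. They were 11955 bases for Wdr12, 10188 for Ncl and 2665 for Npm1. By CPM alone Ncl (700) was above Npm1 (394) in WT spleen. Replicates were close: the median coefficient of variation over the 46 members was 5.39% to 9.13% in the 8 groups outside tumor and mammary gland, 17% in tumor and 18% in mammary gland.

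The summed level of the 46 members differed across groups, with most weight on abundant members. In WT spleen the 5 multifunctional proteins alone summed to 1655 CPM. Other roles had another order: the 16 small subunit factors summed to 1062 CPM in WT spleen, 933 in WT lung and 832 in mammary gland. The sum of all 46 was lowest in KEP blood, 2888 CPM ± 143 (SD, n = 3), followed by WT blood at 3386 ± 157. KEP lung (3886 ± 158), KEP spleen (3899 ± 81.6) and tumor (3914 ± 259) did not differ beyond their spread. WT spleen (4295 ± 195) and WT lung (4298 ± 138) lay next, then mammary gland (4772 ± 663, n = 4), WT lymph node (4824 ± 328) and KEP lymph node (4948 ± 302), whose ranges overlapped. The 3 KEP blood libraries (2731, 3012 and 2920 CPM) were all below the 3 WT blood libraries (3207, 3457 and 3495 CPM). Among the 8 groups other than tumor and mammary gland, KEP blood was the lowest for 24 members and KEP lung for 19, while WT lymph node was the highest for 18 and KEP lymph node for 13.

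**Figure D1:**
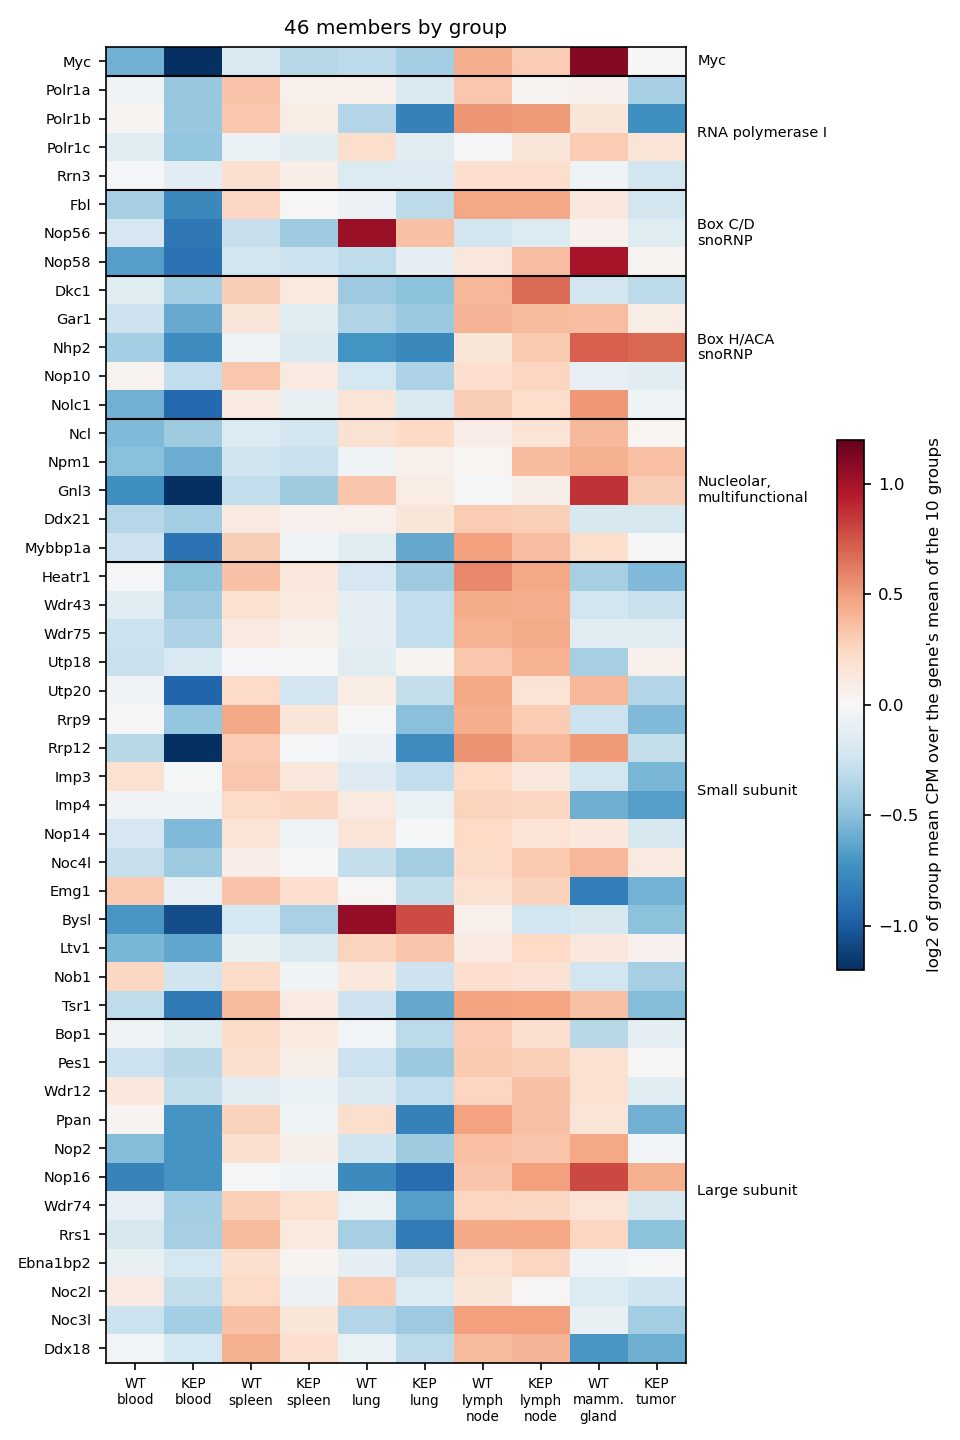
Heat map of the 46 members (rows, grouped by role) in the 10 groups (columns); colour is the log2 of the group's mean CPM over the gene's mean of the 10 groups, without error. KEP blood is blue in every row and both lymph node groups are red in most, while Bysl (1.06) and Nop56 (1.03) have the highest values of WT lung.

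Myc (chromosome 15, 61985341 to 61990374, GRCm38, plus strand) encodes the transcription factor. It was highest in mammary gland, 224 CPM ± 48.4 (SD, n = 4), with 175, 285, 238 and 197 CPM in the 4 libraries. WT lymph node had 141 ± 6.80 and KEP lymph node 129 ± 7.58 CPM, which overlapped. Tumor had 104 ± 41.2 CPM from 3 spread libraries of 150, 91.4 and 71.2 CPM, which spanned the levels of WT spleen (92.7 ± 5.89), WT lung (83.8 ± 7.20), KEP spleen (83.3 ± 12.4) and KEP lung (79.0 ± 24.3). These 5 groups do not differ beyond their spread. WT blood followed with 70.2 ± 7.31 CPM, and KEP blood was lowest with 38.1 ± 2.36 CPM. The 3 KEP blood libraries (35.9, 40.6 and 37.8 CPM) lay below every other library of the series.

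**Figure D2:**
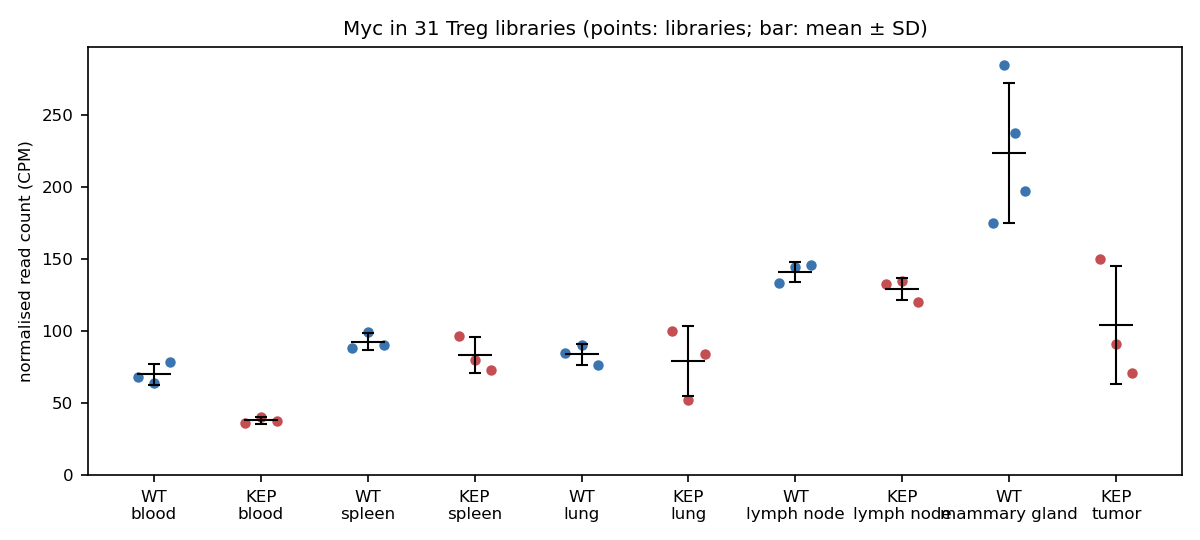
Normalised read count of Myc (CPM, vertical axis) in each of the 31 libraries by group; points are libraries and bars the mean ± SD, with WT in blue and KEP in red. KEP blood libraries sit between 35.9 and 40.6 CPM, below all others, and mammary gland libraries between 175 and 285 CPM.

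The first question was whether Tregs of tumor-bearing mice differed from those of WT mice in the same tissue. In blood they did: 21 of 46 members (45.7%) were lower in KEP mice and none was higher, by edgeR's quasi-likelihood test at an adjusted p under 0.05. Of all 12825 genes tested, 10.3% were called lower and 9.88% higher. The members' median log2 fold change was -0.35, beside -0.01 for all genes, and 43 of 46 were below 0. In 28 members the 3 KEP libraries lay wholly below the 3 WT libraries, as they did in 14.9% of all genes.

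Nop56, a core protein of the box C/D snoRNP, had the smallest p. Its level was 142, 116 and 130 CPM in WT blood and 79.1, 83.5 and 82.6 CPM in KEP blood. The groups did not overlap, and the log2 fold change was -0.68 (SE 0.09, adjusted p = 1.59e-05). Utp20, a large scaffold of the small subunit processome, changed most in size. It had 46.6, 57.5 and 58.6 CPM in WT and 28.5, 27.1 and 30.9 CPM in KEP blood, a log2 fold change of -0.93 (SE 0.12, adjusted p = 1.86e-05). Rrp12, which takes part in subunit export, read 23.3, 24.9 and 27.6 CPM in WT and 12.8, 14.8 and 13.1 CPM in KEP blood. Its KEP libraries were all lower, with a log2 fold change of -0.91 (SE 0.14, adjusted p = 8.12e-05).

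Mybbp1a, a nucleolar protein that binds transcription factors and pre-ribosomal RNA, fell from 152, 168 and 183 CPM to 99.0, 119 and 105 CPM (log2 fold change -0.66, SE 0.10, adjusted p = 8.28e-05). Emg1, a methyltransferase of the small subunit RNA, changed by less and with little spread. It had 161, 154 and 147 CPM in WT and 112, 118 and 117 CPM in KEP blood (log2 fold change -0.43, SE 0.07, adjusted p = 0.000301). Ppan, a large subunit factor, had 49.9, 35.7 and 43.2 CPM in WT and 23.3, 28.3 and 25.6 CPM in KEP blood (log2 fold change -0.76, SE 0.13, adjusted p = 0.000301). Neither gene's groups overlapped. Myc was lower as well, from 68.3, 64.0 and 78.2 CPM to 35.9, 40.6 and 37.8 CPM, a log2 fold change of -0.90 (SE 0.15, adjusted p = 0.000372).

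By role, the calls in blood fell on 2 of 4 RNA polymerase I genes (Polr1a and Polr1b), 2 of 3 box C/D genes (Fbl and Nop56), 3 of 5 box H/ACA genes (Gar1, Nop10 and Nolc1), 2 of 5 multifunctional proteins (Gnl3 and Mybbp1a), 9 of 16 small subunit factors and 2 of 12 large subunit factors (Ppan and Noc2l). The difference between the subunits was not tested. Ncl, Utp18 and Nop16 were the members above 0, with log2 fold changes of 0.08, 0.07 and 0.07 that did not pass. Other genes of the pathway that are not members moved the same way: of 61 further subunit assembly factors tested, 17 were lower and 2 higher, among them Nat10 (-0.76), Mdn1 (-0.86) and Nle1 (-1.04 on the log2 scale). None of 11 further RNA polymerase I genes was called (5 at an unadjusted p under 0.05). Of 24 growth and nucleotide synthesis genes known as MYC targets, 7 were lower and 2 higher; Srm, the spermidine synthase, had a log2 fold change of -0.79, Slc7a5, an amino acid transporter, -0.83 and Cad, which starts pyrimidine synthesis, -0.65. Max, the partner of MYC, was the gene called among 11 of the MYC network, at -0.26, and no gene of the network was called when any 1 of the 6 blood libraries was left out. Without KEP blood replicate 3 the growth genes called numbered 5.

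Other features of the blood libraries moved with genotype. Foxp3, which defines Tregs, was higher in KEP blood by 0.76 on the log2 scale (SE 0.11, adjusted p = 5.15e-05), at 1691 CPM beside 986 CPM in WT, as were 5 of 6 Treg identity genes in all. Cd3e was not (771 against 730 CPM, adjusted p = 0.691). The sum of 21 cell cycle genes was 884 CPM ± 130 in KEP and 761 ± 95.8 in WT blood, with none called (none at an unadjusted p under 0.05). Their part in the result was not tested. With all 31 libraries in 1 fit, whose spread is set partly by tumor and mammary gland, 11 members were called in blood, Emg1 was no longer among them (adjusted p = 0.0629), and 8 of the 61 further assembly factors and none of the 24 growth genes were called. With sorted cell number as a covariate 17 members were called.

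In spleen the same direction held with smaller values. Members called lower were Utp20, Noc2l and Mybbp1a, 3 of 46, beside 0.959% of all genes called lower and 3.3% higher. The median was -0.16 (all genes -0.00), 43 of 46 members were below 0, and in 20 the KEP libraries lay wholly below the WT libraries, as in 11.1% of all genes. Utp20 had 69.5, 62.5 and 65.4 CPM in WT and 50.1, 46.8 and 46.4 CPM in KEP spleen (log2 fold change -0.46, SE 0.12, adjusted p = 0.0197). Noc2l, a large subunit factor that also inhibits histone acetylation, had 152, 148 and 135 CPM in WT and 121, 117 and 117 CPM in KEP spleen (-0.30, SE 0.07, adjusted p = 0.0204). Mybbp1a had 236, 258 and 238 CPM in WT and 198, 192 and 185 CPM in KEP spleen (-0.35, SE 0.10, adjusted p = 0.0358). None of the 3 genes overlapped between genotypes. Myc did overlap, with 88.5, 99.5 and 90.3 CPM in WT and 96.9, 80.2 and 72.7 CPM in KEP spleen (-0.16, SE 0.15, adjusted p = 0.623). These calls are weak: without any 1 spleen library other than WT replicate 3, 0 or 1 member was called, Mybbp1a not passing without any 1 of the 6, and with all 31 libraries none was. Of the 61 further assembly factors 4 were lower and none higher, led by Nat10 (-0.44), and 1 or 2 were called when any 1 of the 6 libraries was left out. Foxp3 was higher in KEP spleen too (log2 fold change 0.63). Mki67 (2.24) and Ccnb2 (2.09) were called among the cell cycle genes, of which 0 to 2 were when 1 library was left out, none without WT spleen replicate 1.

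In lung, 17 of 46 members (37.0%) were lower in KEP mice and none was higher, beside 10.3% of all genes called lower and 9.61% higher. The median was -0.20 (all genes -0.02). The KEP libraries lay wholly below WT in 18 members and wholly above in 2, as they did in 17.6% and 16.7% of all genes. Nop56 led again, with 319, 300 and 289 CPM in WT and 180, 186 and 201 CPM in KEP lung, a log2 fold change of -0.69 (SE 0.09, adjusted p = 1.25e-05). Ppan changed most in size, from 51.3, 49.0 and 45.5 CPM to 24.4, 22.2 and 25.1 CPM (-1.03, SE 0.13, adjusted p = 1.57e-05). Noc2l had 154, 156 and 149 CPM in WT and 109, 100 and 122 CPM in KEP lung (-0.48, SE 0.08, adjusted p = 0.000184). In all 3 genes the genotypes were well apart.

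Rrp12 in lung read 30.4, 34 and 26.8 CPM in WT and 18.5, 15.1 and 23 CPM in KEP (-0.70, SE 0.13, adjusted p = 0.000827). Mybbp1a had 169, 184 and 193 CPM in WT and 121, 118 and 150 CPM in KEP lung (-0.50, SE 0.10, adjusted p = 0.00104). Wdr74, another large subunit factor, had 21.8, 30.7 and 22.8 CPM in WT and 15.7, 16.5 and 18.1 CPM in KEP lung (-0.59, SE 0.14, adjusted p = 0.0041). These 3 genes did not overlap either, whereas Myc did: 84.8, 90.5 and 76.2 CPM in WT against 100, 52.4 and 84.3 CPM in KEP lung (-0.10, SE 0.15, adjusted p = 0.684). Without KEP lung replicate 2, which held the lowest of those values, the log2 fold change of Myc was 0.13 and 11 members were called.

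By role, the lung calls were 5 of 12 large subunit factors (Bop1, Ppan, Wdr74, Rrs1 and Noc2l), 7 of 16 small subunit factors, 2 of 5 multifunctional proteins (Gnl3 and Mybbp1a), and 1 each of the RNA polymerase I (Polr1b), box C/D (Nop56) and box H/ACA (Nolc1) genes. Of the 61 further assembly factors 19 were lower and 2 higher, with Nat10 (-0.63), Wdr18 (-0.54) and Ddx51 (-0.59) in front. Of the 24 growth genes 6 were higher and 2 lower, including Mthfd2 (0.43), Eif4e (0.40) and Cad (-0.40). Mxd1, which competes with MYC for MAX, had a log2 fold change of 0.97 in KEP lung, Mlx 0.37 and Mnt -0.40. Foxp3 was higher in KEP lung (0.50), as were 5 of 21 cell cycle genes led by Mki67 (1.78), whose sum was 2440 CPM in KEP lung replicate 1 against 958 and 892 CPM in the others. These counts moved with single libraries. Leaving out 1 lung library gave 2 (without WT replicate 3 or KEP replicate 1) to 7 growth genes, 0 (without WT replicate 2 or KEP replicate 1) to 11 (without KEP replicate 3) cell cycle genes, and 3 to 5 genes of the MYC network. Markers of other cells went both ways. In KEP lung 9 macrophage and monocyte markers summed to 38.6 to 79.2 CPM, below the 98.3 to 169 CPM of WT lung. The 6 markers of CD8 T and NK cells summed to 59.5 to 105 and 113 to 162 CPM, with Cd8a itself at 0 to 0.185 and 0 to 0.668 CPM. No marker of these 2 lists was at 0 in every library of these groups. The 8 epithelial markers summed to more in KEP lung, at 20.6 to 25.8 against 10.8 to 18.6 CPM. Of these 8 markers 4 were at 0 in every WT lung library and 1 in every KEP lung library. Epcam alone was at 15.1 to 20.8 CPM in KEP lung and 6.87 to 10.95 CPM in WT lung, so the sum mostly describes that gene. Neutrophil markers overlapped, at 16.9 to 38.6 CPM in KEP and 13.8 to 17.8 CPM in WT lung. The part of Foxp3, the cell cycle genes and these markers in the result was not tested. With all 31 libraries in 1 fit 5 members were called in lung, without Rrp12 (adjusted p = 0.062) and Mybbp1a (adjusted p = 0.0971), as were 9 further assembly factors and none of the growth genes. With scaling to the pan-T genes 28 members were, the median of all genes then being -0.12.

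In lymph node no member was called by edgeR, beside 1.12% of all genes called either way. Of the members, 4 had an unadjusted p under 0.05, DESeq2 called 1 and limma-voom with a random date block called 1. The median was -0.00, with 23 members above and 23 below 0. Npm1 came nearest, with 432, 478 and 505 CPM in WT and 656, 586 and 564 CPM in KEP lymph node (0.36, SE 0.09, adjusted p = 0.0621), and it was the member that DESeq2 called (adjusted p = 0.0214). Polr1a, the largest subunit of RNA polymerase I, had 91.5, 84.7 and 93.8 CPM in WT and 80.5, 70.4 and 69.9 CPM in KEP lymph node (-0.28, SE 0.09, adjusted p = 0.146). Both genes were apart between genotypes, while Myc overlapped (-0.12, SE 0.14, adjusted p = 0.754).

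**Figure D3:**
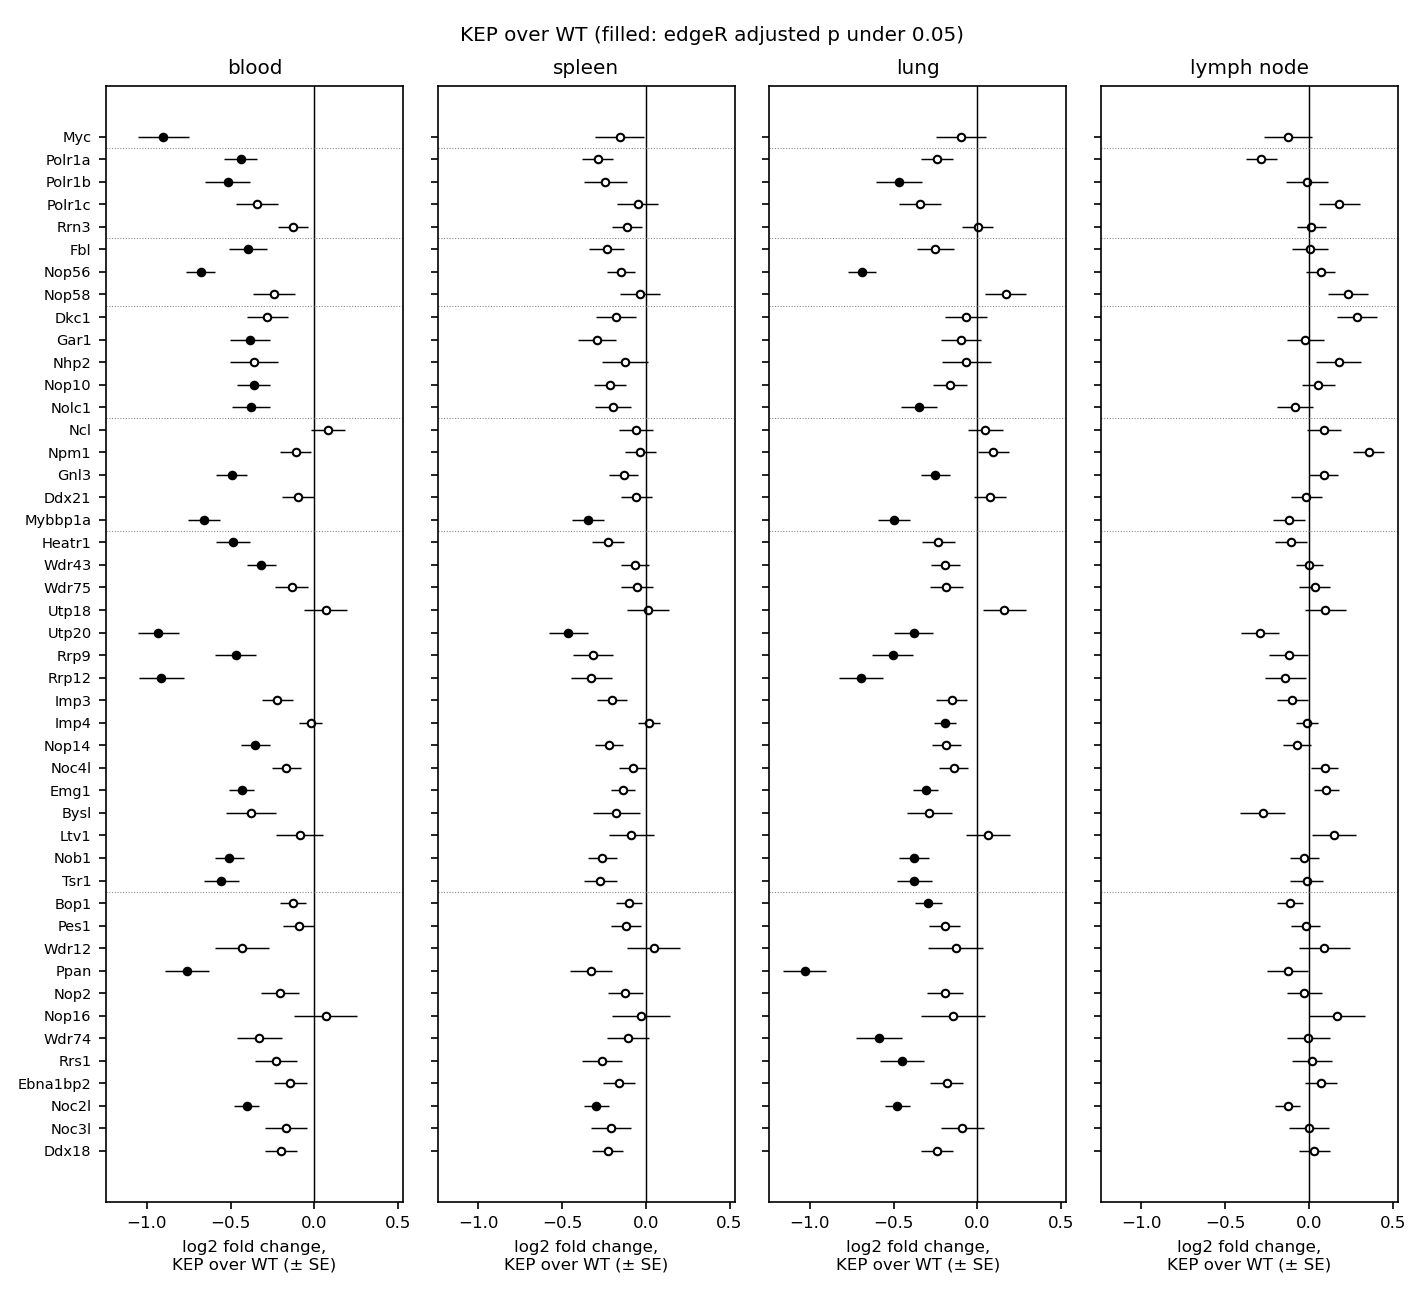
Log2 fold change of KEP over WT (horizontal axis, ± SE from edgeR) for the 46 members in blood, spleen, lung and lymph node; filled points passed an adjusted p under 0.05. Filled points lie left of 0, 21 in blood, 3 in spleen and 17 in lung, and lymph node has none.

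The blood, spleen and lung comparisons use different libraries, but these were not independent, since libraries of 1 date recur across tissues and same-date KEP libraries outside the tumor deviated together in 18 of 18 pairs. In both blood and lung 13 members were called lower, 61.9% of the blood calls and 76.5% of the lung calls: Polr1b, Nop56, Nolc1, Gnl3, Mybbp1a, Utp20, Rrp9, Rrp12, Emg1, Nob1, Tsr1, Ppan and Noc2l. Of all genes called lower in blood 56.1% were also called lower in lung, and 56.4% the other way. Mybbp1a, Utp20 and Noc2l were called in all 3 tissues. In 36 of 46 members all 3 log2 fold changes were below 0, as in 32.0% of all genes. Called in none of these 3 tissues were 21 members, among them Ncl, Npm1, Ddx21, Nop58, Dkc1, Rrn3 and Bysl.

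Whether the KEP effect differed between tissues was tested directly against spleen. No member was called by edgeR for blood, lung or lymph node (0, 3 and 16 of 12825 genes were called in all, that is 0%, 0.0234% and 0.125%). Unadjusted p-values under 0.05 occurred in 10, 5 and 3 members, and DESeq2 called 1, 1 and 0. The smallest p were those of Nop56 in blood (difference -0.53, SE 0.12, adjusted p = 0.256) and lung (-0.54, SE 0.12, adjusted p = 0.238), which DESeq2 called at adjusted p = 0.0491 and 0.0127. Myc was next in blood (-0.74, SE 0.21, adjusted p = 0.389) and Ppan in lung (-0.71, SE 0.18, adjusted p = 0.369). For lymph node these were Npm1 (0.39, SE 0.13, adjusted p = 0.599) and Dkc1 (0.47, SE 0.17, adjusted p = 0.677). The differences for Myc in lung and lymph node were 0.06 (SE 0.21) and 0.03 (SE 0.20). With the date in the titles as a block, a fit chosen after seeing the data, edgeR called Nop56 in blood (-0.53, adjusted p = 0.0269) and both Nop56 (-0.54, adjusted p = 0.033) and Ppan (-0.71, adjusted p = 0.0385) in lung, with 54, 38 and 74 of all genes called for blood, lung and lymph node. Myc did not pass in that fit (adjusted p = 0.153 in blood). For the other members, a KEP effect that passed in one tissue and not in another was not shown by edgeR to differ between them in either fit.

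The second question was how the tissues differed within a genotype, with spleen as the common control of each genotype's 3 comparisons. Blood was lower for most members. In WT mice 32 of 46 members were lower in blood than in spleen and none higher, beside 11.8% of all genes called lower and 13.8% higher. In KEP mice 39 were lower and none higher, beside 12.2% and 12.3%. The medians were -0.37 and -0.51 (all genes 0.01 and -0.01). In WT mice 43 members were below 0 and 3 above, and in KEP mice all 46 were below 0. In both genotypes 30 members were called, 93.8% of the WT and 76.9% of the KEP calls. Of all genes called lower, 59.3% of the WT and 57% of the KEP calls were shared.

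Tsr1, which helps mature the small subunit, led in both genotypes. It had 51.1, 50.2 and 53.9 CPM in WT blood against 77.9, 81.0 and 91.6 CPM in WT spleen (-0.68, SE 0.10, adjusted p = 2.13e-05). In KEP mice it had 32.2, 43.8 and 31.2 CPM in blood against 71.5, 69.4 and 66.8 CPM in spleen (-0.97, SE 0.10, adjusted p = 4.02e-07). Blood and spleen were far apart in each genotype. In WT mice the next members were Nop2, a large subunit RNA methyltransferase (35.8 against 59.0 CPM, -0.71), Nolc1, a chaperone of snoRNPs (64.1 against 103 CPM, -0.67), and the box C/D methyltransferase Fbl (44.5 against 69.7 CPM, -0.64). In KEP mice they were Rrp12 (13.6 against 31.5 CPM, -1.22), Gnl3, the GTPase nucleostemin (22.4 against 38.6 CPM, -0.80), and Mybbp1a (108 against 192 CPM, -0.85). Myc was lower in KEP blood (38.1 against 83.3 CPM, -1.14, SE 0.15, adjusted p = 1.26e-05). In WT mice Myc had 70.2 against 92.7 CPM (-0.40, SE 0.15, adjusted p = 0.0524), and its libraries did not overlap. With the date in the titles as a block that adjusted p was 0.0486.

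Genes outside the list followed in blood. Of 61 further assembly factors 36 were lower and 2 higher in WT, led by Nol6 (-0.58), Pelp1 (-0.56) and Nol11 (-0.53), and 37 were lower and 2 higher in KEP, led by Mdn1 (-0.94), Nol6 (-0.69) and Nat10 (-0.61). Growth and nucleotide MYC targets were lower in 13 of 24 genes in WT (Srm -0.76, Ccnd2 -0.61, Cdk4 -0.47) and in 17 of 24 in KEP mice, with 1 higher (Srm -1.14, Eif4a1 -0.47, Prmt5 -0.66). Among RNA polymerase I genes, Ubtf, which opens ribosomal DNA, was lower in both (-0.32 and -0.23). Of the MYC network 2 genes were called in WT and 1 in KEP blood, with Mxi1, a MYC antagonist, higher in both (0.63 and 0.78). In WT blood the count of 32 fell to 17 with pan-T scaling and to 18 with sorted cell number as a covariate or with all 31 libraries, and in KEP blood the last gave 23. Leaving out 1 library gave 25 (without blood replicate 1) to 36 further assembly factors and 8 (without spleen replicate 2 or blood replicate 3) to 12 growth genes in WT blood. Markers differed between these tissues too: the macrophage and monocyte markers summed to 42.5 to 51.9 CPM in WT blood against 8.67 to 12.7 in WT spleen, and to 48.8 to 80.8 against 17.2 to 36.7 CPM in KEP mice. Of these 9 markers 3 were at 0 in every WT blood library and 1 in every KEP blood library. CD8 T and NK markers overlapped between blood and spleen, and 6 Treg identity genes summed to 2270 to 3053 CPM in WT blood against 1963 to 2387 in spleen, which overlap, and to 4003 to 4984 against 2800 to 3640 CPM in KEP mice. Their part in the result was not tested.

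Lung had members in both directions. In WT mice 26 members were lower and 5 higher than in spleen, beside 21.8% and 23.1% of all genes, and in KEP mice 29 were lower and 6 higher, beside 24.4% and 23.7%. Every one of the 26 WT calls for lower levels recurred among the 29 KEP calls, and all 5 higher ones (Nop56, Ncl, Gnl3, Bysl and Ltv1) among the 6 in KEP mice, to which Npm1 was added. Of all genes, 80% of the WT calls for lower and 80.9% of those for higher levels recurred in KEP mice.

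Nop56 rose most in WT mice and Bysl in KEP mice. Nop56 lies on chromosome 2, 130274430 to 130279313 (GRCm38, plus strand). It had 319, 300 and 289 CPM in WT lung against 140, 114 and 112 CPM in WT spleen (1.31, SE 0.09, adjusted p = 5.00e-12). In KEP lung it had 180, 186 and 201 CPM against 110, 110 and 112 CPM in spleen (0.77, SE 0.09, adjusted p = 6.67e-08). All lung libraries exceeded all spleen libraries, and WT lung stood above the other 9 groups. Bysl, which encodes bystin of the small subunit, lies on chromosome 17, 47599331 to 47611492 (minus strand). It had 72.6, 80.8 and 95.7 CPM in WT lung against 34.5, 34.3 and 34.5 CPM in spleen (1.27, SE 0.14, adjusted p = 3.69e-08), and 75.1, 63.9 and 66.7 CPM against 31.4, 28.5 and 31.5 CPM in KEP mice (1.16, SE 0.14, adjusted p = 1.42e-07). Gnl3 had 65.4 CPM ± 2.49 in WT lung against 42.3 ± 3.82 in spleen (0.63, SE 0.09, adjusted p = 1.80e-06) and was called in KEP mice at 0.51.

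Most factors were lower in lung instead. Tsr1 had 54.1 against 83.5 CPM in WT (-0.62, SE 0.10, adjusted p = 1.71e-05) and 41.9 against 69.3 CPM in KEP mice (-0.73, SE 0.10, adjusted p = 1.88e-06). Rrs1, which helps recruit the 5S particle to the large subunit, read 16, 13 and 15 CPM in KEP lung against 25.6, 28.1 and 31.5 CPM in KEP spleen (-0.96, SE 0.13, adjusted p = 9.70e-07). By role, 9 of 12 large subunit factors were lower in WT lung and 10 of 12 in KEP lung, 4 of 5 box H/ACA genes in each, and 8 and 10 of 16 small subunit factors. Myc did not pass in either genotype (-0.14, adjusted p = 0.455, and -0.08, adjusted p = 0.663). Its libraries overlapped those of spleen.

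**Figure D4:**
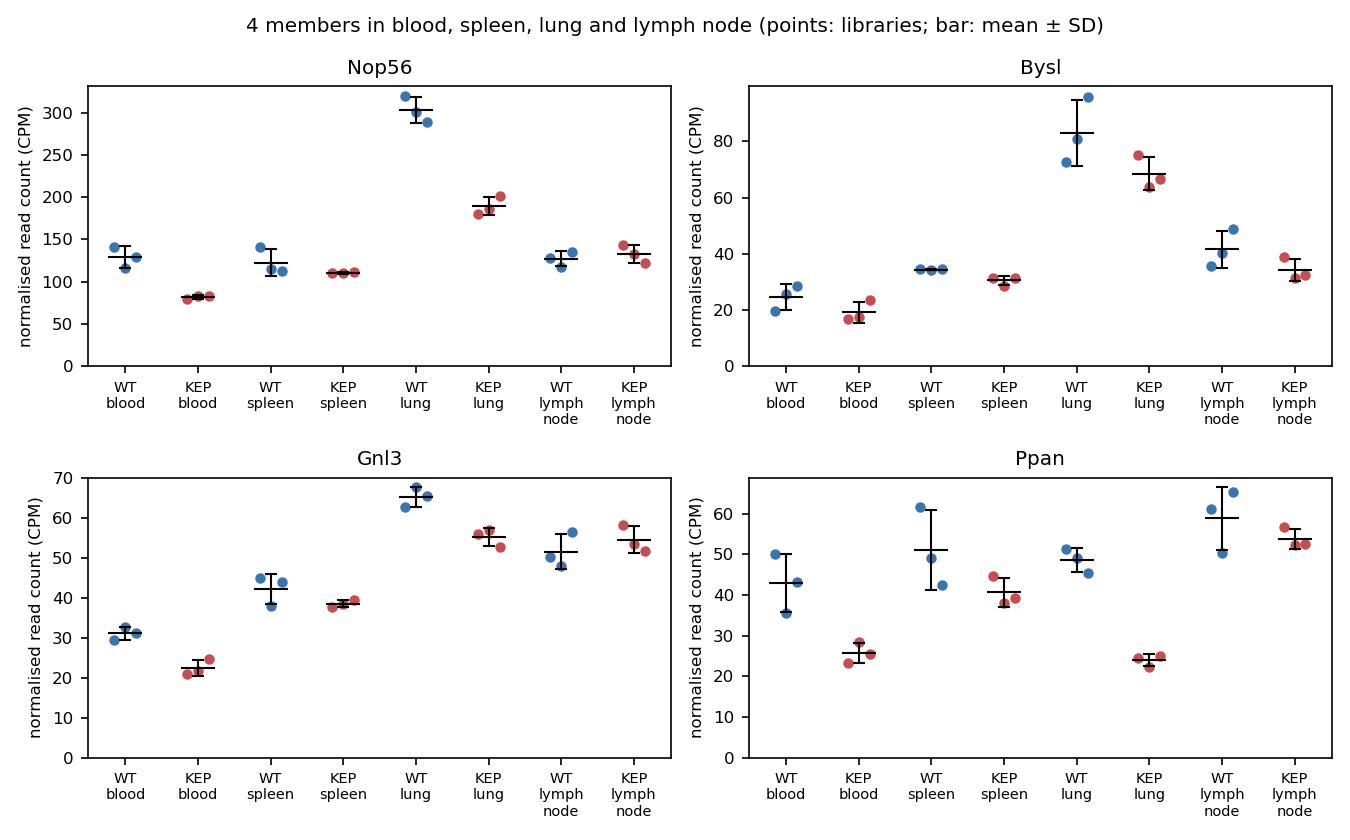
Normalised read count (CPM, vertical axes from 0) of Nop56, Bysl, Gnl3 and Ppan in each library of the 8 groups of blood, spleen, lung and lymph node; blue points are WT and red points KEP libraries, with the mean ± SD. Nop56, Bysl and Gnl3 are higher in lung than in spleen, and Ppan in KEP lung (22.2 to 25.1 CPM) lies below all WT lung libraries (45.5 to 51.3 CPM).

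Nop56 shares exon positions with Idh3b and Bysl with Ccnd3, each on the opposite strand, and the strand setting of the counting is not given in the sources used here. Idh3b was at -0.26 in WT lung over spleen and Ccnd3 at -0.35 in WT and -0.60 in KEP lung, all called lower, and Idh3b in KEP lung (-0.17) did not pass. In KEP over WT, Idh3b was at -0.05 in blood and 0.11 in lung, neither called. Gnl3 overlaps Pbrm1, which was at 0.14 in WT (adjusted p = 0.265) and 0.45 in KEP lung (adjusted p = 0.000757). In all, 18 members share exon positions with another gene of the table, also Polr1a, Dkc1, Nhp2, Mybbp1a, Heatr1, Rrp9, Imp4, Nop14, Emg1, Tsr1, Bop1, Pes1, Wdr12, Ppan and Noc2l, so their values are uncertain to that extent. Some partners moved in the direction of the member. Srr, the partner of Tsr1, was at -0.90 (adjusted p = 0.00174) in WT and -0.60 (adjusted p = 0.0225) in KEP lung over spleen. Parp3, the partner of Rrp9, was at -0.43 (adjusted p = 0.0187) in KEP over WT lung. Mroh1, the partner of Bop1, was at -0.34 (adjusted p = 0.00731) in that comparison. Mpp1, the partner of Dkc1, was at -0.32 to -0.37 in blood and lung over spleen in both genotypes, called each time.

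Beyond the list, 36 of 61 further assembly factors were lower and 2 higher in WT lung (Utp11l -0.88, Nol6 -0.67, Utp3 -0.87), and 41 lower and 4 higher in KEP lung (Dhx37 -1.01, Mphosph10 -0.93, Nol9 -0.74). Taf1d, a subunit of the polymerase I selectivity factor, was higher in both (1.33 and 1.11), while Ttf1, the polymerase I termination factor, was lower (-0.87 and -0.99). The growth genes split, and 16 of 24 were called in WT and 16 in KEP lung, counting both directions. Those named for the smallest p were all higher. They were Tfrc, the transferrin receptor (2.28 and 2.29), Odc1, which starts polyamine synthesis (1.77 and 1.83), and Slc3a2, an amino acid transporter subunit (0.80 and 0.71). Of the MYC network 6 genes were called in WT and 6 in KEP lung, counting both directions. Of all genes 23.1% were called higher and 21.8% lower in WT lung, and 23.7% and 24.4% in KEP lung. Whether the network counts exceed these shares was not tested. Among the called network genes the antagonist Mxd1 was at 395 CPM in WT lung against 57.2 in spleen (2.79, SE 0.23, adjusted p = 1.74e-08). In KEP mice Mxd1 was at 782 against 81.5 CPM (3.26, SE 0.23, adjusted p = 2.04e-09). Mxi1 was higher as well (1.23 and 1.47). Lungs were digested with Liberase and spleens are not said to have been, so tissue and digestion cannot be told apart. The macrophage and monocyte markers (98.3 to 169 CPM in WT and 38.6 to 79.2 in KEP lung) and the Treg identity genes (3734 to 4550 and 5810 to 6119 CPM) were above the spleen ranges given for blood, and the CD8 T and NK markers were below spleen (228 to 382 CPM in WT and 119 to 238 in KEP spleen). Their part in the result was not tested. With pan-T scaling WT lung had 7 members higher and 16 lower, the median of all genes then being 0.12.

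Lymph node showed the opposite of blood in KEP mice, with few calls in WT mice. In KEP mice 24 of 46 members were higher in the tumor-draining lymph node than in spleen and none lower, beside 5.35% of all genes called higher and 5.72% lower. The median was 0.34 (all genes 0.02), 45 of 46 were above 0, and in 36 the lymph node libraries lay wholly above spleen, as in 17.1% of all genes. In WT mice 4 of 46 (8.7%) were higher and none lower, beside 4.56% and 4.41% of all genes, with a median of 0.18. Above 0 there were 36 members, and 10 were below. Those 4, Myc, Gnl3, Wdr43 and Wdr75, were all among the 24, while 51.3% of all genes called higher in WT were also called higher in KEP mice. In KEP against WT, 43 of 46 members were below 0 in spleen and 23 in lymph node. No member was called for the difference of these KEP effects. The part of the lower KEP spleen levels in the count of 24 was not tested. The CD8 T and NK markers summed to 48.4 to 56.9 CPM in WT and 39.8 to 47.5 in KEP lymph node, below spleen, and the Treg identity genes to 2781 to 3627 CPM in WT lymph node, above WT spleen, and to 3639 to 3980 CPM in KEP lymph node, of which the lowest library was level with the highest of KEP spleen (3640 CPM). Their part in the result was not tested.

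Npm1 led in KEP mice, with 656, 586 and 564 CPM in lymph node against 395, 391 and 371 CPM in spleen (0.66, SE 0.09, adjusted p = 5.04e-05). Gnl3 had 58.3, 53.7 and 51.9 CPM against 37.7, 38.5 and 39.7 CPM (0.51, SE 0.09, adjusted p = 0.000298). Nop58, the partner of Nop56 in the box C/D snoRNP, had 123, 110 and 107 CPM against 74.6, 72.5 and 74.2 CPM (0.64, SE 0.12, adjusted p = 0.00112). In each gene the 2 tissues were apart. Dkc1, the pseudouridine synthase dyskerin, was at 0.58 (SE 0.12, adjusted p = 0.00203). By role, all 3 box C/D genes, 3 of 5 box H/ACA genes, 4 of 5 multifunctional proteins, 9 of 16 small and 3 of 12 large subunit factors and 1 of 4 RNA polymerase I genes were higher than in spleen.

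Myc was higher in lymph node in both genotypes, with 133, 144 and 146 CPM against 88.5, 99.5 and 90.3 CPM in WT spleen (0.61, SE 0.15, adjusted p = 0.00789) and 133, 134 and 120 CPM against 96.9, 80.2 and 72.7 CPM in KEP spleen (0.65, SE 0.14, adjusted p = 0.00532). No lymph node library overlapped spleen. In WT mice Gnl3 was at 0.29 (adjusted p = 0.0315), Wdr75 at 0.32 (adjusted p = 0.0337) and Wdr43 at 0.27 (adjusted p = 0.0424). Growth MYC targets were higher in 11 of 24 genes in KEP and 4 of 24 in WT mice, with Tfrc (1.13 and 1.08) and Slc7a5 (0.84 and 0.68) in both, and 19 and 1 of the 61 further assembly factors were higher. In KEP mice any 1 left-out library lowered the assembly factors to between 3 (without lymph node replicate 1) and 11 (without lymph node replicate 3), and the growth genes ranged from 6 (without spleen replicate 2 or lymph node replicate 1) to 12. The counts in lymph node depended on the fit. With all 31 libraries they were 3 in KEP and 0 in WT mice and Myc did not pass (adjusted p = 0.160 and 0.191). With the date in the titles as a block 9 members, 11 growth genes and 6 further assembly factors were called in WT mice, and 17 growth genes in KEP mice. With GC and length trends Myc alone of the members was called in WT mice. Leaving out KEP spleen replicate 2 or 3 or KEP lymph node replicate 1 or 2 gave 9, 13, 10 and 15 for KEP mice. In WT mice the count was 1 or 2 without spleen replicate 1 or 2 or lymph node replicate 2 or 3, and 7 without spleen replicate 3.

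**Figure D5:**
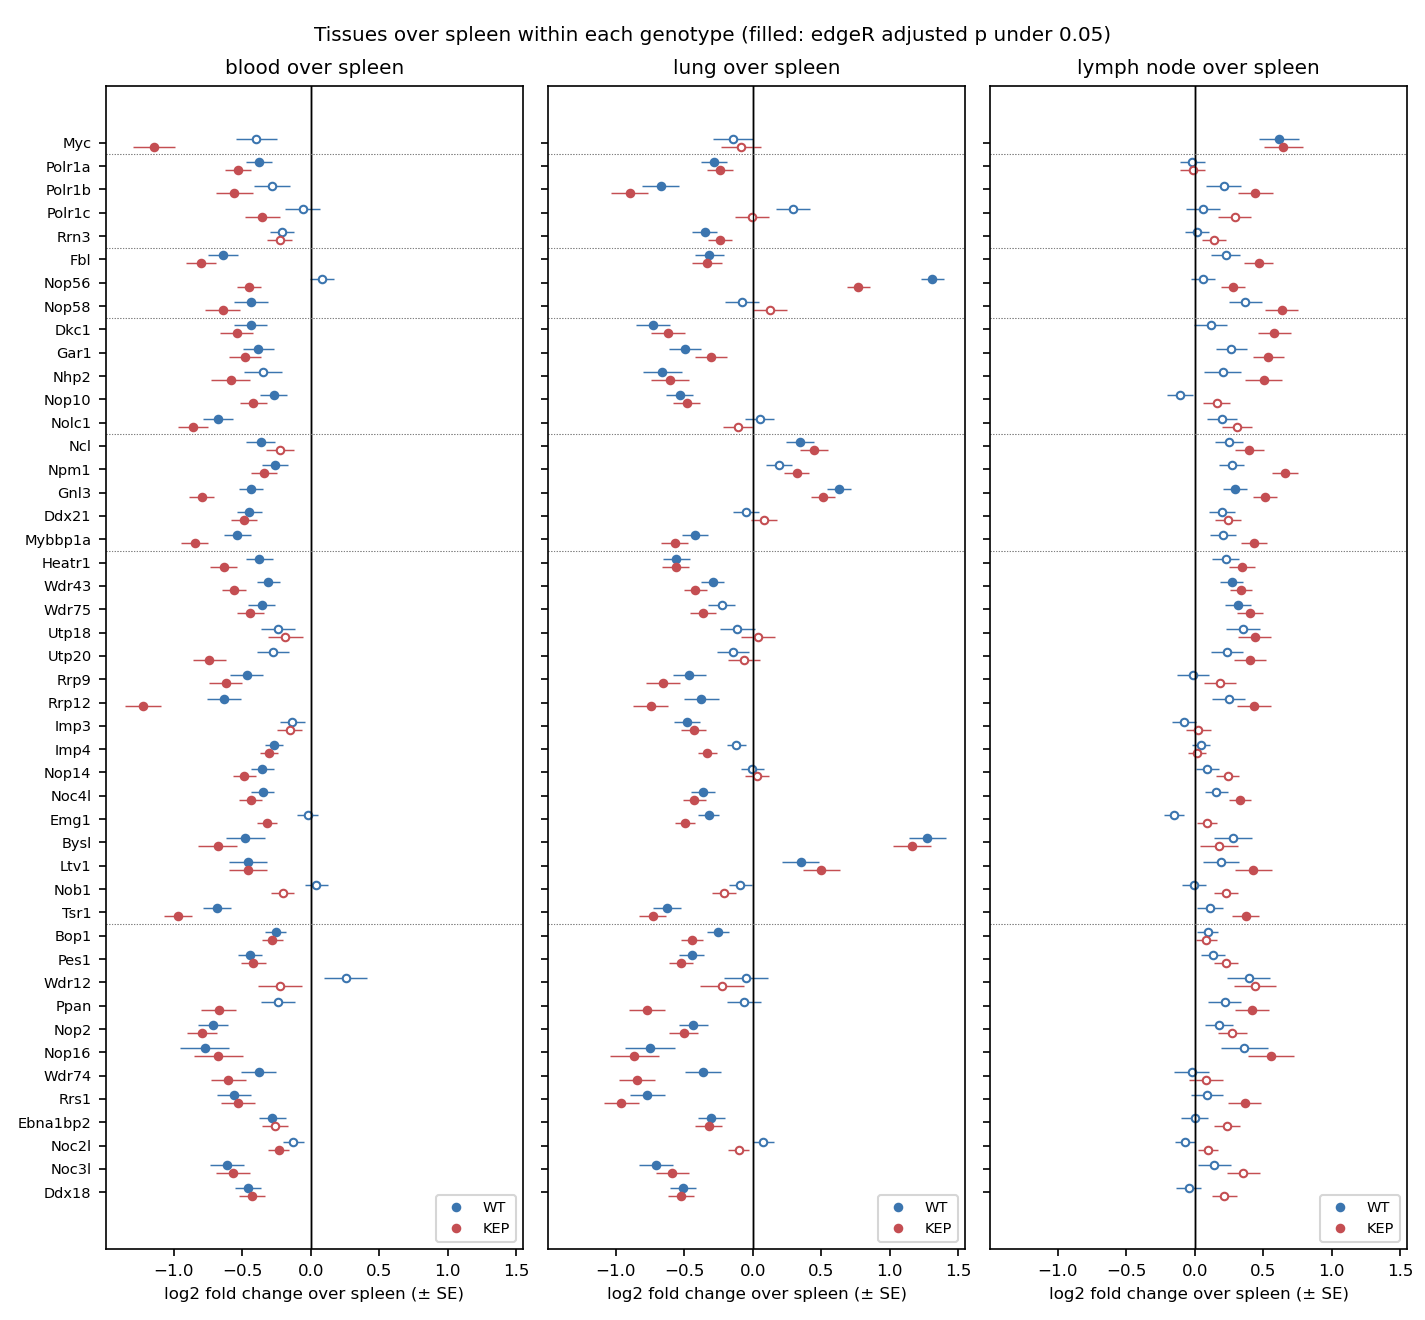
Log2 fold change over spleen (horizontal axis, ± SE from edgeR) of the 46 members in blood, lung and lymph node, within WT (blue) and KEP (red) mice; filled points passed an adjusted p under 0.05. Blood points lie left of 0 for all members in KEP mice, lymph node points lie right of 0 for 45 of them, and in lung Nop56, Bysl and Gnl3 lie right of 0 while most members lie left.

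Tumor libraries were compared with those of mammary gland and of the draining lymph node. Against mammary gland 3 of 46 members were called, 1 higher and 2 lower, beside 11.2% and 14% of all genes. Nop58 had 82.0, 84.6 and 104 CPM in tumor and 181, 169, 199 and 150 CPM in mammary gland (-0.86, SE 0.18, adjusted p = 0.0155). Tsr1 had 35.1, 52.5 and 46.6 CPM in tumor and 95.5, 73.3, 78.1 and 79.3 CPM in mammary gland (-0.78, SE 0.18, adjusted p = 0.023). Utp18, a small subunit processome protein, had 43.2, 36.6 and 39.6 CPM in tumor and 30.4, 30.8, 27.3 and 27.5 CPM in mammary gland (0.56, SE 0.16, adjusted p = 0.0406). The groups did not overlap in these 3 genes, nor in Myc, which had 150, 91.4 and 71.2 CPM in tumor and 175, 285, 238 and 197 CPM in mammary gland (-0.99, SE 0.32, adjusted p = 0.0604).

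The pan-T sum moved with this comparison. Cd3e was 363 CPM in tumor and 48.0 CPM in mammary gland (3.03, adjusted p = 0.0428), and epithelial markers summed to 165 to 2002 CPM in tumor and at least 4903 CPM in mammary gland. Stroma and endothelium markers summed to 3641 to 7203 CPM in tumor and 1233 to 2745 CPM in mammary gland. The part of these markers in the result was not tested. Scaled to the pan-T genes, all 46 members were lower in tumor, Utp18 turned to -2.92, and the median of all genes was -3.51. With sorted cell number as a covariate none was called, with GC and length trends Tsr1 alone, with all 31 libraries 18 (1 higher, 17 lower), and with DESeq2 7 including Myc (adjusted p = 0.0193). The count was 1 without mammary gland replicate 1, 3 or 4 or tumor replicate 2, and 5 without tumor replicate 3, and Myc passed without tumor replicate 1 (-1.38, adjusted p = 0.0176). Of the MYC network 5 genes were called, counting both directions. Its antagonist Mxd1 was higher in tumor (1143 against 124 CPM, 3.32, adjusted p = 0.00624), as was Mxi1 (1.18). Growth genes were higher in 5 of 24, led by Tfrc (0.92), Odc1 (1.52) and Ldha (0.89). Of the 61 further assembly factors 4 were higher and 3 lower, with Gnl2 (-0.96) and Nat10 (-0.67) in front. Beside these counts, 11.2% of all genes were called higher and 14% lower. Whether the counts exceed these shares was not tested. When 1 library was left out, 0 (without mammary gland replicate 3) to 5 growth genes and 2 to 9 (without tumor replicate 3) further assembly factors were called.

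Against the draining lymph node, 18 of 46 members were lower in tumor and none higher, beside 18.3% of all genes called lower and 26.5% higher. Scaled to the pan-T genes no member was called, the members' median was 0.44 and that of all genes 0.79. Heatr1, a small subunit scaffold also needed for transcription of ribosomal DNA, had 50.2, 60.7 and 56.9 CPM in tumor and 114, 109 and 110 CPM in lymph node (-0.94, SE 0.11, adjusted p = 0.00198). Imp4, a small subunit processome protein, had 56.9, 55.7 and 48.7 CPM against 97.0, 104 and 101 CPM (-0.86, SE 0.11, adjusted p = 0.00273). The helicase Ddx18 had 25.1, 32.7 and 30.9 CPM against 62.9, 56.5 and 56.2 CPM (-0.94, SE 0.13, adjusted p = 0.00336). Tumor libraries were about alike in these genes and apart from lymph node.

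Ppan was lower in tumor than in lymph node too, with 31.2, 27.2 and 26 CPM against 56.6, 52.2 and 52.4 CPM (-0.88, SE 0.12, adjusted p = 0.00341), and by role 10 of 16 small subunit and 4 of 12 large subunit factors fell. Myc overlapped and did not pass (-0.26, SE 0.28, adjusted p = 0.478), but without tumor replicate 1, whose 150 CPM was the highest of the 3, it was at -0.64 (adjusted p = 0.0129). With sorted cell number as a covariate it was at -0.63 (adjusted p = 0.0105). Of the 61 further assembly factors 32 were lower and 1 higher, led by Mdn1 (-1.35), Nat10 (-0.98) and Nol6 (-1.10), as were 6 of 11 further RNA polymerase I genes (Ttf1 -1.37, Twistnb -0.79, Polr1e -0.95). Of the MYC network 6 genes were called, counting both directions, with Mxd1 at 4.42 on the log2 scale. Of the growth genes Slc3a2 (1.77) and Odc1 (2.67) were higher and Gart, of purine synthesis, lower (-1.03), among 8 called, which became 14 without tumor replicate 1. Beside these, 26.5% of all genes were called higher and 18.3% lower. Whether the network and growth counts exceed these shares was not tested. Cd3e was 363 against 679 CPM (adjusted p = 0.152), and macrophage markers summed to 757 to 5273 CPM in tumor. Stroma and endothelium markers summed to 3641 to 7203 CPM in tumor and 174 to 213 CPM in lymph node. Their part in the result was not tested. With pan-T scaling Heatr1 was at -0.16 (adjusted p = 0.843) and Myc at 0.29. With GC and length trends 41 members were called, the median of all genes then being -0.52, and with all 31 libraries 29. Tumors were digested with collagenase A, so tissue and digestion cannot be told apart here either.

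Over the 12 comparisons Tsr1 was called in 9, and Gnl3, Mybbp1a, Wdr43 and Rrp12 in 8 each. The comparisons share libraries, and how often genes at large were called is not given. These counts therefore describe the calls and are not results about the members. Wdr12 was called in none, with log2 fold changes from -0.44 to 0.44, and Polr1c in 1. The 5 multifunctional nucleolar proteins did not move as 1 group: Ncl, Npm1 and Gnl3 rose in KEP lung over spleen while Mybbp1a fell, and Ddx21 was at 0.08.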

How the data were processed

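RNA of sorted Tregs was measured in 31 libraries of 10 groups, from poly(A) RNA with a stranded kit and single reads of 65 bases, per the labels' protocols. The authors deposited whole-number read counts per gene; the submitters' processing notes name TopHat2 2.1.0, TopHat, HTSeq and GRCm38. The strand setting and annotation of the counting are not given in the sources used here. The members and gene lists were chosen with earlier results of these data known. Replicates are numbered in accession order.

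Counts were tested with edgeR 4.0.16 (R 4.3.3): TMM factors, filterByExpr with a minimum count of 10, a quasi-likelihood F test and Benjamini-Hochberg adjustment over all genes tested, called at an adjusted p under 0.05. Separate fits held the 24 libraries of blood, lung, lymph node and spleen (12825 genes), the 7 of tumor and mammary gland (14538) and the 6 of tumor and draining lymph node (12903). All 46 members passed the low-count filter in each. SE is the log2 fold change divided by the root of F. Levels are CPM with TMM factors over the 31 libraries. The procedure was tested on simulated data with independent libraries, which does not cover same-date libraries that deviate together. No pair of replicates agreed within sampling noise.

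Named were Myc in every comparison, the 6 called members with the smallest p per KEP and WT comparison, 4 per comparison of tissues or of effects, and 2 where fewer than 2 were called; of each further gene list, up to 3 called genes with the smallest p.

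Libraries of 1 genotype share dates in their titles and the genotypes never do, so date and genotype cannot be told apart. Same-date libraries outside tumor and mammary gland deviated together in 18 of 18 KEP pairs (correlation over 0.1; median 0.27) and in 7 of 18 WT pairs (median 0.09), and in 1 of 12 and 0 of 12 pairs with tumor or mammary gland. Alternatives were RLE factors, no filter, scaling to pan-T genes, sorted cell number as covariate, DESeq2 1.42.0, all 31 libraries in 1 fit, the date as a replicate block (limma-voom 3.58.1 with a random block for genotypes) and leaving out each library. GC and length trends, and the block for differences of the KEP effect between tissues, were chosen after seeing the data. Promoters are those of RefSeq (GRCm38.p6); exon overlaps come from GENCODE M21.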

Additional observations from a re-analysis of the deposited data

How the results depend on the processing

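Counts below are members called. The share of all genes called in each of these fits is not given, so the counts describe the fits and are not results about the members. Without the low-count filter the count was 1 in KEP against WT lymph node and 2 for the difference of the KEP effect between lung and spleen. With pan-T scaling it was 28 in KEP against WT lung, 17 in WT blood over spleen, 46 in tumor against mammary gland and 0 in tumor against draining lymph node. With sorted cell number it was 18 in WT blood over spleen and 0 in tumor against mammary gland. DESeq2 called 5 in KEP against WT spleen, 1 in lymph node, 1 for each of the blood and lung differences and 7 in tumor against mammary gland. GC and length trends gave 5 in KEP against WT spleen, 1 in WT lymph node over spleen, 1 in tumor against mammary gland and 41 in tumor against draining lymph node. With all 31 libraries the counts were 11, 0 and 5 for KEP against WT blood, spleen and lung, 18 and 29 for tumor against mammary gland and draining lymph node, 18 and 0 for WT blood and lymph node over spleen, and 23 and 3 for the same in KEP mice. RLE factors kept every count within 1.5 times. The cause of these shifts was not tested.

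The replicate block by title date gave 9 in WT lymph node over spleen, 1 for the blood difference (Nop56, adjusted p = 0.0269) and 2 for the lung difference (Nop56, adjusted p = 0.033, and Ppan, adjusted p = 0.0385), and limma-voom with the random date block gave 1 in KEP against WT lymph node (Npm1, adjusted p = 0.0416). Beside these and Myc in WT blood over spleen (adjusted p = 0.0486), these block fits changed no call of a named member.

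Leaving out 1 library gave 16 to 25 in KEP against WT blood, 0 to 3 in spleen, 11 to 16 in lung and 0 to 0 in lymph node. The ranges over spleen were 25 to 32 (blood), 27 to 30 (lung) and 1 to 7 (lymph node) in WT mice, and 35 to 38, 31 to 33 and 9 to 19 in KEP mice. They were 1 to 5 in tumor against mammary gland, 13 to 23 against draining lymph node, and 0 to 1 for the difference between lung and spleen, where Nop56 was called without WT spleen replicate 1.

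Signs turned for 2 named members. Utp18 in tumor against mammary gland was at -2.92 with pan-T scaling. Myc in tumor against draining lymph node was at 0.29 and its lung difference at -0.0101 with pan-T scaling, and in KEP lung over spleen it was at 0.0035 with GC and length trends. Leaving out 1 library moved Myc between -0.29 and 0.13 in KEP against WT lung, between -0.28 and 0.14 in KEP lung over spleen, between -0.15 and 0.28 for the lung difference, and between -0.0643 and 0.148 for the lymph node difference. None of these Myc values was called. Total counts of 8154765 or more per library left all members testable; the number of libraries and, in tumor and mammary gland, their spread limit the precision.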
